A study of Mus musculus with 15 samples.

Results

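The constitutive proteasome subunit genes were followed through RNA sequencing libraries of mouse brain, in a study that models temporal lobe epilepsy with the glutamate receptor agonist kainic acid (KA). Members were the protein-coding genes whose symbol is Psma, Psmb, Psmc or Psmd plus a number, without pseudogenes and without the immunoproteasome genes Psmb8, Psmb9 and Psmb10. There were 36 such genes among the 65964 entries of the deposited table. They comprised 8 genes of the alpha ring and 8 of the beta ring, which form the core particle, and 6 ATPases and 11 non-ATPase subunits of the regulatory particle. The remaining 3 genes, Psmd5, Psmd9 and Psmd10, encode chaperones that help to assemble the base of the regulatory particle.

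The proteasome degrades proteins that carry ubiquitin chains. Its core particle is a barrel of stacked rings, in which the alpha rings gate the entrance and the beta rings hold the proteolytic sites. Psmb5 provides the chymotrypsin-like, Psmb6 the caspase-like and Psmb7 the trypsin-like activity, and immune cells can replace these subunits with Psmb8, Psmb9 and Psmb10. The regulatory particle binds and deubiquitinates substrates through its non-ATPase subunits and unfolds them with its ring of ATPases.

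The series is about lipid-laden reactive astrocytes in epilepsy, and 15 libraries from C57BL/6 mice formed 5 groups of 3. APOE_H and APOE_L libraries came from mice given KA and APOE, KA_H and KA_L libraries from mice given KA, and CTRL_L libraries from untreated mice. The labels attach the name of the KA model to all 5 groups, the untreated one included, and they define neither the letters H and L nor what the APOE treatment was. No untreated H group exists among the labels, so KA and the letter cannot be told apart between KA_H and CTRL_L. Ages are not stated in the labels, nor is it stated that the 3 libraries of a group are separate animals, so p-values measure a spread between samples that may be technical.

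Levels were transcript abundances (TPM), which are scaled for transcript length and for the library total, so that levels of different genes can be set side by side. Microglial transcripts were abundant in every library, although the label gives brain as the tissue. Their 10 markers summed to between 19875 and 37730 TPM in H libraries, against 9187 to 17796 TPM in APOE_L and KA_L and 11083 to 40701 TPM in CTRL_L libraries. The 8 astrocyte markers summed to between 34.8 and 92.3 TPM in H libraries, against 96.4 to 163 TPM in APOE_L and KA_L and 187 to 331 TPM in CTRL_L libraries. Among them, Slc1a3 ran from 33.5 to 157 TPM and Gfap reached at most 3.53 TPM, and 8 neuronal markers summed to at most 66.4 TPM. The 6 choroid plexus markers, led by the transthyretin gene Ttr, summed to between 33029 and 58515 TPM in the 6 H libraries, against 57.6 to 1281 TPM in the 6 APOE_L and KA_L libraries. Among CTRL_L libraries the same sum was 139, 38745 and 23649 TPM. The 4 neutrophil markers summed to 0, 1152 and 0 TPM in APOE_H libraries and to between 226 and 1291 TPM in KA_H libraries, against at most 0.05 TPM in any L library. Assembled loci without a gene name took 2.20% to 6.78% of the TPM total in H libraries, against 10.6% to 12.1% in APOE_L and KA_L libraries and 6.73% to 8.94% in CTRL_L libraries. Among APOE and KA libraries, H and L did not overlap in the microglial, choroid plexus and astrocyte sums or in the share of assembled loci, and they overlapped in the neutrophil and neuronal sums. The part of these values in the results on H and L was not tested.

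Among the sums over the alpha ring, the beta ring and the regulatory particle, only that of the beta ring separated H from treated L libraries (no test was made on sums). The 7 widely expressed beta ring genes summed to between 1033 and 1821 TPM in H libraries, against 497 to 639 TPM in APOE_L and KA_L libraries. CTRL_L libraries, which are L libraries too, had 1202, 529 and 965 TPM, so that CTRL_L replicate 1 lay within the H range. No H library overlapped an L library of the treated mice, the ratio of means was 2.58, and it was 2.17 after each library was rescaled to its protein-coding nuclear genes. The 7 widely expressed alpha ring genes summed to between 708 and 1453 TPM in H libraries, against 476 to 1143 TPM in APOE_L and KA_L libraries, so these ranges overlapped. CTRL_L libraries had alpha ring sums of 1007 to 1483 TPM. The 17 regulatory particle genes showed another order: they summed to between 1481 and 1717 TPM in APOE_H, against 416 to 879 TPM in KA_H. APOE_H libraries lay above every other library in that sum, since APOE_L reached 876 TPM, KA_L 707 TPM and CTRL_L 1218 TPM. Per gene, the core particle was 2.12 to 2.34 times as abundant as the regulatory particle in APOE_H libraries, against 3.41 to 6.68 times in KA_H libraries. The ratio was between 2.11 and 3.93 in APOE_L, 3.04 and 10.8 in KA_L, and 2.68 and 3.17 in CTRL_L libraries, so that APOE_H and APOE_L overlapped. In bulk RNA, fewer cells of a type and less RNA per cell cannot be told apart.

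**Figure D1:**
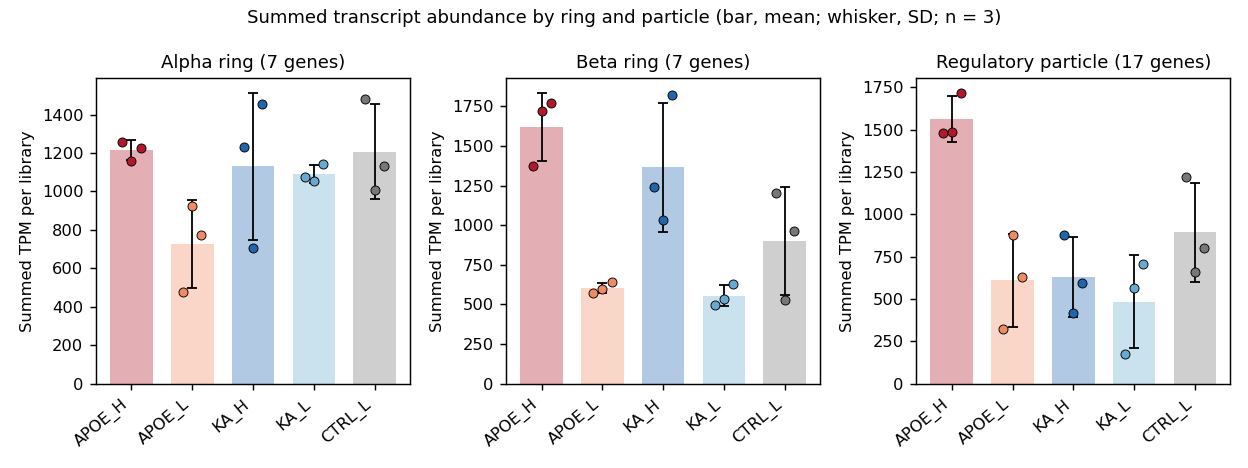
Summed TPM per library of the alpha ring, the beta ring and the regulatory particle, with 1 point per library and the group mean as a bar with its SD (n = 3). The beta ring sum separates H from treated L libraries (1033 to 1821 against 497 to 639 TPM), and the regulatory particle sum is highest in the APOE_H libraries (1481 to 1717 TPM). CTRL_L libraries have beta ring sums of 529 to 1202 TPM.

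Of the 36 members, 35 reached 1 TPM in at least 3 of the 15 libraries and were tested. Psmb11, a catalytic subunit known from thymic epithelium, stayed at or below 0.12 TPM and was not tested. Psma8, an alpha subunit known from testis, was listed at 0 in 9 libraries. It reached 96.6 TPM in CTRL_L replicate 2 and 83.1 TPM in KA_L replicate 1, and at most 12.7 TPM elsewhere. Tests were made with limma on log2(TPM + 1) with 1 fit over all 15 libraries, and p-values were adjusted by the Benjamini-Hochberg method over the 17505 tested entries of a comparison, with a threshold of 0.05. A log2 fold change on this scale understates the change of a gene near 0.

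**Figure D2:**
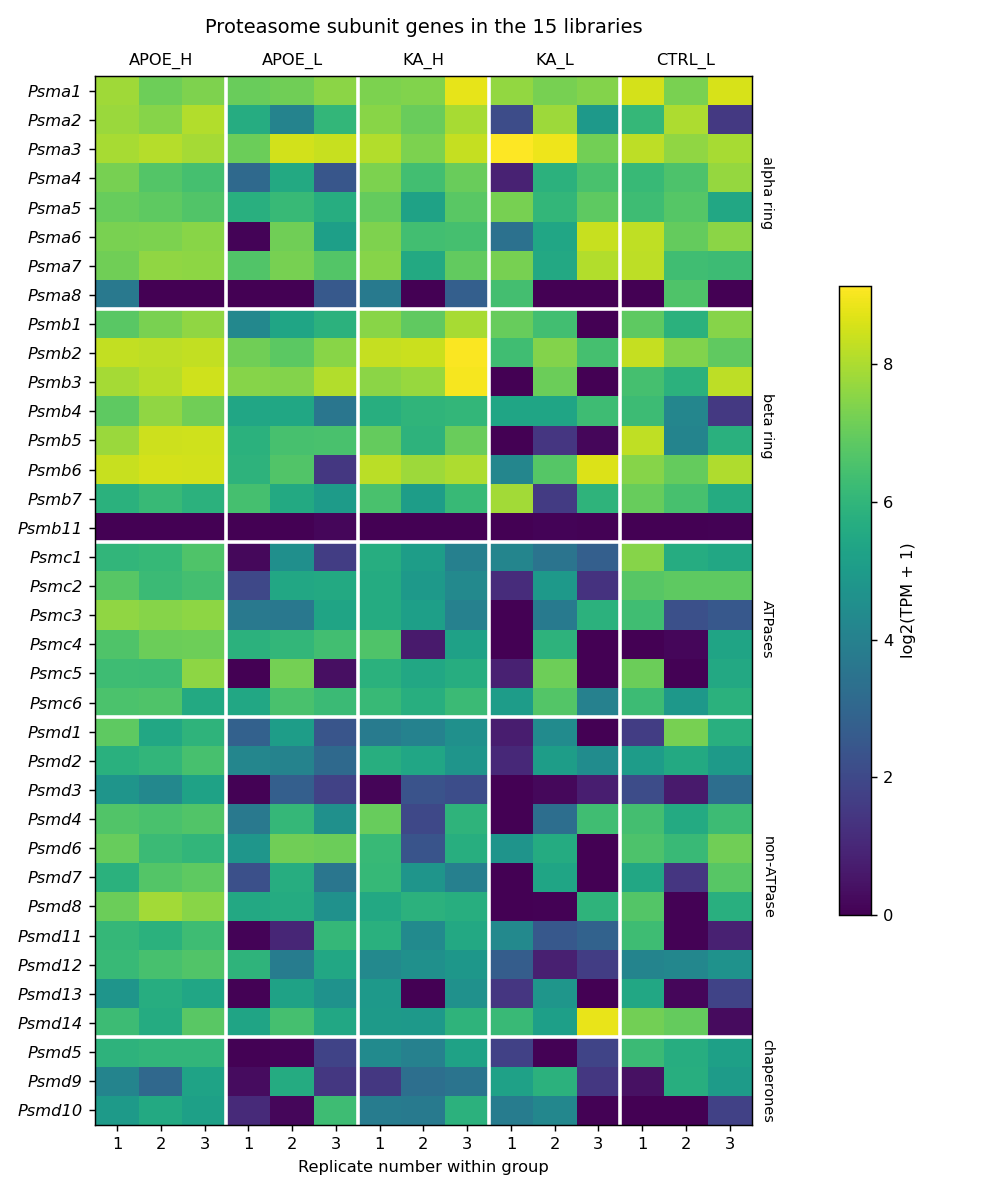
Level of each of the 36 members as log2(TPM + 1) in each of the 15 libraries, grouped by ring, particle and group. The 3 APOE_H columns are even, with no widely expressed subunit under 1 TPM, whereas KA_L replicates 1 and 3 have 11 and 10 such subunits under 1 TPM.

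In the alpha ring, 1 of 8 tested genes passed in any comparison, that of H with L averaged over KA and APOE, where 7.72% of all tested entries were higher in H. Psma3, the most abundant alpha gene, measured 241, 276 and 237 TPM in APOE_H, 136, 361.5 and 326 TPM in APOE_L, and 268, 161.5 and 323 TPM in KA_H. It measured 559, 474 and 144 TPM in KA_L and 299, 193 and 244 TPM in CTRL_L. The highest and the lowest Psma3 values of the treated mice were thus both in L libraries, and H and L overlapped. Psma4, a structural alpha subunit, measured 153, 101 and 86.4 TPM in APOE_H, against 7.74, 45.9 and 4.40 TPM in APOE_L. It measured 160.2, 82.2 and 132 TPM in KA_H, against 0.84, 58.0 and 89.1 TPM in KA_L, and 69.3, 93.8 and 203 TPM in CTRL_L. APOE_H and APOE_L did not overlap for Psma4, whereas KA_L replicate 3 lay above the lowest KA_H library. Averaged over both treatments, Psma4 was higher in H by a log2 fold change of 2.80 (SE 0.85, limma adjusted p = 0.0453). The other 6 tested alpha genes beside Psma8 had log2 fold changes of H over L between -0.24 and 2.53 and did not pass.

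The beta ring held 4 of the 8 members called between H and L, and Psmb5, whose product carries the chymotrypsin-like site, was the only member called in 4 comparisons. Psmb5 measured 213, 349 and 354 TPM in APOE_H and 56.4, 87.7 and 89.0 TPM in APOE_L. It measured 123, 58.1 and 130.15 TPM in KA_H, against 0, 1.74 and 0.12 TPM in KA_L, and 302, 16.2 and 54.4 TPM in CTRL_L. All 3 KA_L libraries lay below every other library of the series, and CTRL_L replicate 1 stood far above the other CTRL_L libraries. Psmb5 fell by 5.51 on the log2 scale in KA_L against CTRL_L (SE 0.93, limma adjusted p = 0.0139). It was higher in KA_H than in KA_L by a log2 fold change of 6.09 (SE 0.93, adjusted p = 0.00538 in limma) and higher in APOE_L than in KA_L by 5.73 (SE 0.93, adjusted p = 0.0374 in limma). Averaged over both treatments, Psmb5 was higher in H than in L by 4.02 (SE 0.66, adjusted p = 0.00133 in limma). These 4 comparisons share the KA_L libraries and are not separate evidence of low KA_L values. In APOE_H against APOE_L the groups did not overlap either, but the log2 fold change of 1.95 (SE 0.93) did not pass. The pseudogene Psmb5-ps, whose reads could be confused with those of Psmb5, was listed at 0 in all 15 libraries.

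The promoters of Psmb5 and Psmb6, both beta genes with a catalytic product, of Psmb3, and of the chaperone gene Psmd5 are shown because these genes are among those that passed between H and L. Each runs 5′ to 3′ on the gene's own strand from 250 bases before the start of transcription to 50 bases after it (RefSeq, GRCm38.p6). Psmb5 lies on the minus strand at chr14:54617946-54618245, Psmb6 on the plus strand at chr11:70525107-70525406, Psmb3 on the plus strand at chr11:97703184-97703483, and Psmd5 on the minus strand at chr2:34870913-34871212. Capitals mark the letters TGACNNNGC, the core of the antioxidant response element that Nfe2l1, an activator of proteasome genes, is known to bind, and the letters CCAAT, the NF-Y box, on either strand.
Psmb5: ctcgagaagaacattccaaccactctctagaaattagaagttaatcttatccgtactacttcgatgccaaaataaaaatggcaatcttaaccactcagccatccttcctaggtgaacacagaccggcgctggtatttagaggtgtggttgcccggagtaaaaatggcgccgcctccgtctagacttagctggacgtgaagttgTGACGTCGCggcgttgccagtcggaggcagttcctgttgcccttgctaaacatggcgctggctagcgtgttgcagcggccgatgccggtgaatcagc
Psmb6: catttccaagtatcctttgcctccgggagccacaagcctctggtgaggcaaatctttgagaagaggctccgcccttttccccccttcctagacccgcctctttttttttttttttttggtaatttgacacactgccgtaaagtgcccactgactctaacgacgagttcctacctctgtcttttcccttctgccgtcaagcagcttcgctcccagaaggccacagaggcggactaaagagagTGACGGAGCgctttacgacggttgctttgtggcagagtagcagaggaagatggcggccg
Psmb3: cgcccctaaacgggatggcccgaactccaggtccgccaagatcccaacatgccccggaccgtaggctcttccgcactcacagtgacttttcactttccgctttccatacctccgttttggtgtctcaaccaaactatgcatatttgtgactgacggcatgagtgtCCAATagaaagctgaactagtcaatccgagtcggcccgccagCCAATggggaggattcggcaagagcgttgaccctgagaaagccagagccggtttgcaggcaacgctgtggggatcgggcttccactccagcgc
Psmd5: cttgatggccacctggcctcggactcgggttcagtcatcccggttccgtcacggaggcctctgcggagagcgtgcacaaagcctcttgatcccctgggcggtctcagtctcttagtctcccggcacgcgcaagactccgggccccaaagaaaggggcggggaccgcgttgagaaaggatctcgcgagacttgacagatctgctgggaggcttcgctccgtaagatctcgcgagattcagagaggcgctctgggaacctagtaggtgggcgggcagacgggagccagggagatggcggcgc
The leftmost letter of TGACNNNGC stood 47 bases before the start of Psmb5 and 9 bases before that of Psmb6, and CCAAT stood 85 and 43 bases before that of Psmb3. Psmd5 held neither run of letters in this window. The reference table held 31 promoters for 29 of the 36 members, and of these 5 (16.1%) had TGACNNNGC and 12 (38.7%) had CCAAT. Over all 32851 promoters of the table the shares were 12.4% and 37.4%, and no member promoter held both. A match describes letters and not a bound site.

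Psmb2 and Psmb3, structural genes of the beta ring, and Psmb6 also passed between H and L. Psmb2 measured 315, 298 and 309 TPM in APOE_H, against 139.7, 112.5 and 179 TPM in APOE_L, and 319, 333 and 544 TPM in KA_H, against 80.1, 173 and 86.2 TPM in KA_L. CTRL_L libraries had 319.94, 169 and 118 TPM of Psmb2. No H library overlapped a treated L library, and the log2 fold change of H over L was 1.49 (SE 0.37, limma adjusted p = 0.0176). Psmb3 measured 185.5, 209.7 and 514 TPM in KA_H, against 0, 134 and 0 TPM in KA_L, where the gene was listed at 0 in replicates 1 and 3. It measured 240.5, 279.99 and 354 TPM in APOE_H, against 175, 171 and 269 TPM in APOE_L, and 85.3, 57.5 and 299.75 TPM in CTRL_L. The KA groups were separate for Psmb3 and the APOE groups overlapped. Psmb3 was higher in KA_H than in KA_L by a log2 fold change of 5.73 (SE 1.34, limma adjusted p = 0.0453) and in H than in L by 3.13 (SE 0.95, limma adjusted p = 0.0454).

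Psmb6 measured 327, 371 and 359.78 TPM in APOE_H, against 59.1, 98.3 and 1.76 TPM in APOE_L. It measured 291, 219 and 256 TPM in KA_H, against 17.2, 105 and 404 TPM in KA_L, and 176, 125 and 266 TPM in CTRL_L. The APOE groups were separate, whereas KA_L replicate 3 exceeded all KA_H libraries. Psmb6 was higher in H than in L by a log2 fold change of 2.63 (SE 0.80, limma adjusted p = 0.0465). The pseudogene Psmb6-ps2 was listed at 4.86 TPM in APOE_H replicate 2 and at most at 0.83 TPM elsewhere, and Psmb6-ps at most at 0.09 TPM. The remaining catalytic gene, Psmb7, measured 55.5, 70.01 and 57.2 TPM in APOE_H, against 86.2, 45.5 and 31.01 TPM in APOE_L. It measured 90.15, 32.8 and 70.07 TPM in KA_H, against 234, 1.98 and 59.9 TPM in KA_L, and 128, 87.45 and 48.1 TPM in CTRL_L. Psmb7 groups overlapped in each of these pairs, and its log2 fold change of H over L was 0.53 (SE 0.82, not passed). Among the catalytic genes, Psmb5 and Psmb6 thus passed between H and L and Psmb7 did not; whether they differ from Psmb7 was not tested.

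**Figure D3:**
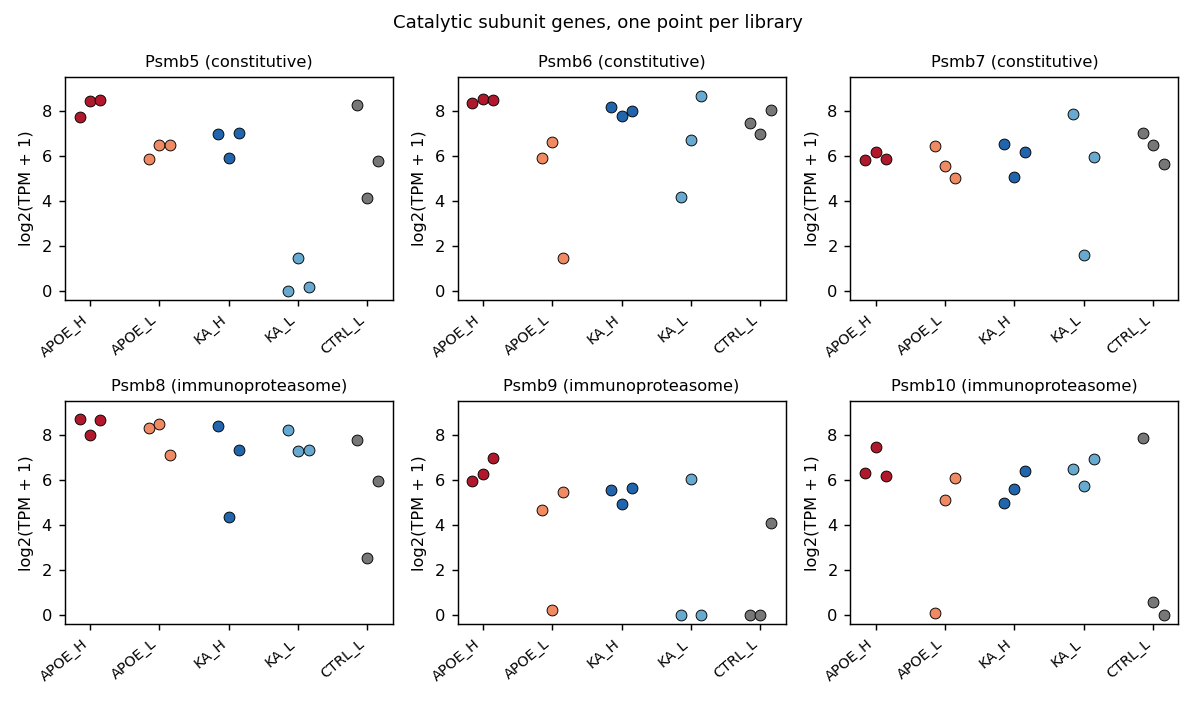
Levels of the 3 constitutive catalytic genes (top) and of their immunoproteasome counterparts (bottom) as log2(TPM + 1), with 1 point per library in the 5 groups. Psmb5 lies at 0, 1.74 and 0.12 TPM in KA_L, where Psmb8 lies at 296, 155 and 161 TPM.

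Psmb1 and Psmb4, 2 further structural beta genes, did not pass. Psmb4, the least abundant tested beta gene, measured 115, 196 and 140.38 TPM in APOE_H, against 40.9, 42.0 and 10.9 TPM in APOE_L, and 51.8, 61.1 and 64.9 TPM in KA_H, against 39.9, 39.9 and 78.4 TPM in KA_L. Its CTRL_L values were 74.9, 17.4 and 1.88 TPM. Every APOE_H library exceeded every other library in Psmb4. Psmb1 was listed at 0 in KA_L replicate 3 and at 127 and 82.05 TPM in the other 2 KA_L libraries, and it ran from 18.15 to 242 TPM elsewhere. The immunoproteasome gene Psmb8 exceeded Psmb5 by between 5.83 and 8.21 on the log2(TPM + 1) scale in the KA_L libraries. The same difference lay between 0.63 and 2.50 in APOE_L libraries. APOE_H libraries had differences between -0.44 and 0.99, KA_H libraries between -1.54 and 1.45, and CTRL_L libraries between -1.56 and 0.18. Neither Psmb8 nor Psmb9 nor Psmb10 passed in any of the 9 comparisons by limma, with Psmb9 at an unadjusted p under 0.05 in 2 of them.

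Among the ATPases, Psmc1 was the only 1 of 6 to pass, and it is the least abundant of them over the 15 libraries. Psmc1 measured 62.9, 68.6 and 98.0 TPM in APOE_H, against 0.15, 22.4 and 2.17 TPM in APOE_L. It measured 50.55, 32.7 and 14.68 TPM in KA_H, against 16.7, 10.3 and 5.84 TPM in KA_L, and 177, 49.8 and 43.7 TPM in CTRL_L. APOE_H and APOE_L did not overlap, and the log2 fold change was 4.11 (SE 1.07, limma adjusted p = 0.0313). Averaged over treatments, Psmc1 was higher in H by 2.77 (SE 0.76, adjusted p = 0.0278 in limma). Psmc5, the most abundant ATPase gene, measured 77.3, 75.5 and 191 TPM in APOE_H and 56.2, 43.5 and 50.52 TPM in KA_H. In the L groups it switched between libraries, with 0, 147 and 0.30 TPM in APOE_L, 0.77, 136 and 0 TPM in KA_L, and 134, 0.04 and 45.1 TPM in CTRL_L. The H libraries therefore held 43.5 TPM of Psmc5 or more, and each L group held a library below 1 TPM beside one above 100 TPM. Psmc3 measured 193, 174 and 189 TPM in APOE_H, against 48.05, 34.3 and 15.04 TPM in KA_H, 11.8, 11.5 and 39.2 TPM in APOE_L, 0, 12.6 and 56.6 TPM in KA_L, and 80.08, 3.67 and 4.70 TPM in CTRL_L. APOE_H libraries lay above all others in Psmc3, but no comparison of it passed.

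Of the 11 non-ATPase genes, Psmd12, which encodes a subunit of the lid, was the only 1 to pass. Psmd12 measured 70.3, 88.9 and 99.2 TPM in APOE_H, against 59.96, 13.4 and 43.0 TPM in APOE_L, and 18.45, 22.9 and 27.25 TPM in KA_H, against 5.49, 0.75 and 2.15 TPM in KA_L. CTRL_L libraries had 16.5, 17.9 and 24.1 TPM. H lay above L within each treatment, KA_L lay lowest of all, and the log2 fold change of H over L was 2.10 (SE 0.62, limma adjusted p = 0.0403). Psmd3, another lid gene and the least abundant of the class, measured 26.3, 18.4 and 37.0 TPM in APOE_H and at most 8.88 TPM in any other library. Its log2 fold change of APOE_H over KA_H was 3.24 (SE 1.11), with an adjusted p of 0.357 in limma. Psmd14, whose product is the deubiquitinase of the lid, was the most abundant of the class on average, with its highest value of 458 TPM in KA_L replicate 3. Its other values ran from 0.19 TPM, in CTRL_L replicate 3, to 145 TPM.

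The lid genes Psmd6, Psmd7 and Psmd8 were each listed at 0 in at least 1 KA_L library although they reached 1 TPM in at least 12 of 15 libraries. Psmd8 measured 135, 233 and 179.85 TPM in APOE_H, 44.6, 48.35 and 23.6 TPM in APOE_L, 44.55, 56.6 and 51.2 TPM in KA_H, 0, 0.05 and 60.9 TPM in KA_L, and 101, 0.04 and 53.8 TPM in CTRL_L. Psmd7 measured 55.7, 102 and 114 TPM in APOE_H, 3.72, 49.98 and 10.98 TPM in APOE_L, 69.0, 26.25 and 14.6 TPM in KA_H, 0, 40.07 and 0 TPM in KA_L, and 43.3, 1.69 and 107 TPM in CTRL_L. Psmd6 measured 129, 74.0 and 63.3 TPM in APOE_H, 27.0, 139.74 and 135 TPM in APOE_L, 70.02, 4.18 and 52.4 TPM in KA_H, 25.6, 48.3 and 0 TPM in KA_L, and 95.0, 71.2 and 142 TPM in CTRL_L. The lowest APOE_H value over the 3 genes was 55.7 TPM, and KA_L held a library at 0 beside one above 40 TPM in each. Their differences did not pass in any of the 9 comparisons; the largest of H over L was that of Psmd8, at 2.96 (SE 1.12).

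Psmd5, the chaperone gene, differed most of all members between H and L on the log2 scale. It measured 58.3, 63.5 and 63.85 TPM in APOE_H, against 0.03, 0.07 and 2.53 TPM in APOE_L, and 19.9, 15.3 and 37.6 TPM in KA_H, against 2.40, 0.05 and 2.63 TPM in KA_L. CTRL_L libraries, which are L libraries too, had 73.6, 50.06 and 35.9 TPM. All treated L libraries lay below all H and all CTRL_L libraries. Psmd5 was higher in APOE_H than in APOE_L by a log2 fold change of 5.32 (SE 0.96, limma adjusted p = 0.0061) and in H than in L by 4.32 (SE 0.68, limma adjusted p = 0.000998), and it fell by 4.47 on that scale in KA_L against CTRL_L (SE 0.96, limma adjusted p = 0.0478). The choroid plexus sums of those CTRL_L libraries were 139, 38745 and 23649 TPM, and the part of these markers in the Psmd5 values was not tested. The other base chaperones, Psmd9 and Psmd10, ran from 0.23 to 57.2 TPM and from 0 to 78.0 TPM, with no comparison passed.

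**Figure D4:**
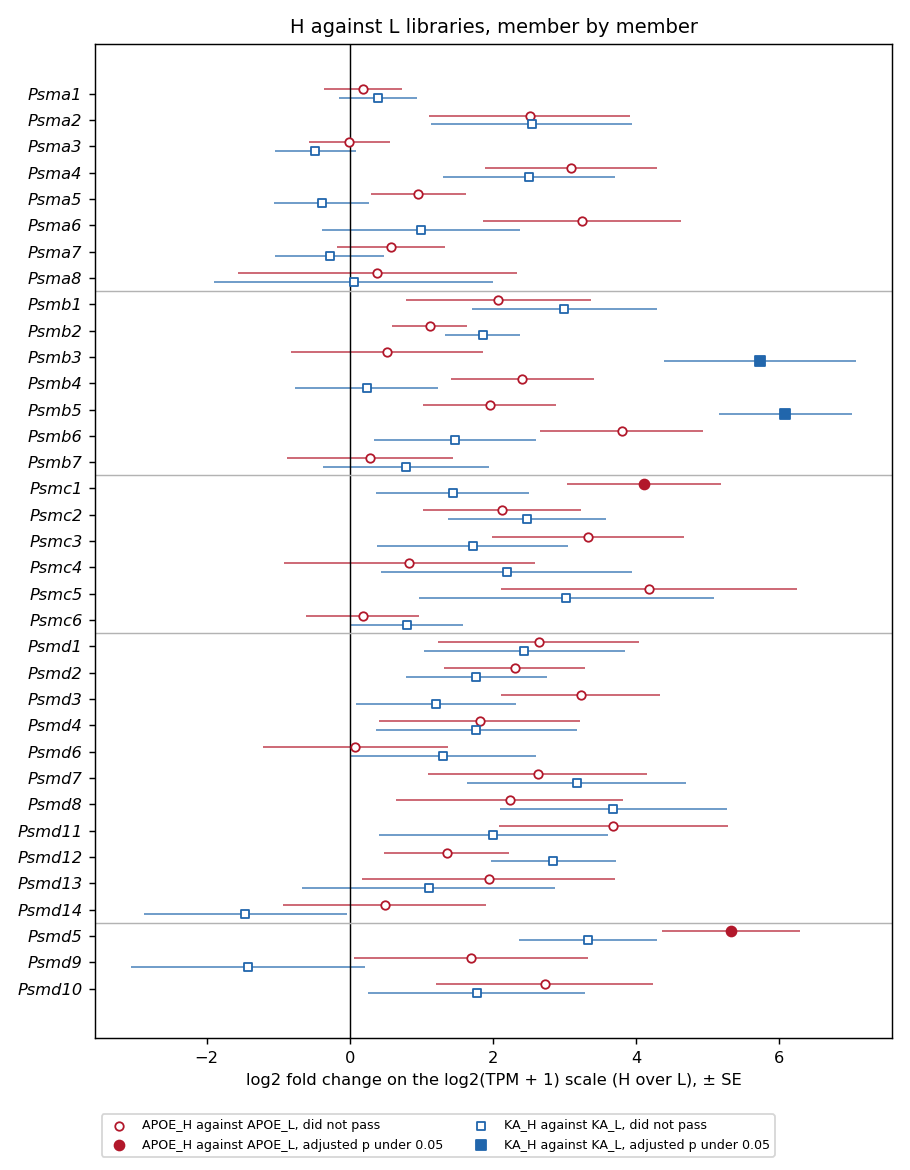
Log2 fold change of H over L for each tested member within the APOE and within the KA libraries, on the log2(TPM + 1) scale with its SE; filled symbols passed an adjusted p of 0.05. Psmd5 and Psmc1 passed in APOE and Psmb5 and Psmb3 in KA, and 34 and 30 of the 35 values lie above 0. Over all tested entries 60.3% and 52.5% lie above 0.

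Counted by comparison, H against L averaged over KA and APOE gave the most calls: 8 of 35 members were higher and 0 lower, where 7.72% of all tested entries were higher and 2.46% lower. The 8 were Psma4, Psmb2, Psmb3, Psmb5, Psmb6, Psmc1, Psmd5 and Psmd12, so 4 of 7 tested beta genes, 1 of 8 alpha genes, 1 of 6 ATPases, 1 of 11 non-ATPase genes and 1 of 3 chaperones passed. The median log2 fold change was 2.12 over the members and 0.32 over all tested entries. A positive value was found in 33 of 35 members, against 58.5% of all tested entries. By class the median was 0.29 for the alpha ring, 2.53 for the beta ring, 2.41 for the ATPases and 2.10 for the non-ATPase genes. Psmb2 and Psmd5 were the only 2 members (5.71%) for which all H libraries exceeded all treated L libraries, against 3.42% of tested entries. Leaving out 1 library gave 13 called members without KA_L replicate 2, and 3 without APOE_H replicate 1 or 3 or any 1 of the KA_H libraries, 4 without APOE_H replicate 2, and 5 without APOE_L replicate 1 or 3 or CTRL_L replicate 1. How many of all tested entries were called without each library is not given here. Psmb5 and Psmd5 kept their call in 25 of 25 other settings, which was 24 of 25 for Psmb2, and between 8 and 17 of 25 for the other 5 genes.

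Within the treatments the calls were fewer. APOE_H against APOE_L had 2 higher members (Psmc1 and Psmd5) and 0 lower, with 4.7% of tested entries higher and 1.45% lower; the median was 2.07 over members and 0.54 over all. In 21 of 35 members (60%) every APOE_H value exceeded every APOE_L value, against 20.1% of tested entries. KA_H against KA_L had 2 higher members (Psmb3 and Psmb5) and 0 lower, with 1.23% of tested entries higher and 0.251% lower; the median was 1.77 over members and 0.11 over all. Every KA_H value exceeded every KA_L value in 6 members (17.1%), against 10.5% of tested entries, and every KA_H value lay below every KA_L value in 0 members, against 9.12% of tested entries. The interaction of treatment and letter was called for 0 members by limma (0.0457% of tested entries), with 2 lower at an unadjusted p under 0.05, against 2.87% of entries: Psmb3 at -5.21 (SE 1.90) and Psmb5 at -4.13 (SE 1.32), both with a larger difference in KA. The Psmc1 call was lost, leaving 1 call, without any 1 of the APOE_H libraries or APOE_L replicate 1 or 3; 3 were called without APOE_L replicate 2 or KA_L replicate 3 and 4 without KA_L replicate 1. In KA the Psmb3 call was lost in 15 of 25 other settings, among them each omission of a library other than KA_L replicate 2 and the CTRL_L libraries, which left 1 call; the interaction had 1 call without KA_L replicate 2.

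KA_L against CTRL_L, the comparison of KA with no treatment among L libraries, had 2 lower members (Psmb5 and Psmd5) and 0 higher, with 0.4% of tested entries lower and 0.171% higher. The median was -1.24 over the members and 0 over all tested entries, and 26 of 35 values were negative. Over all tested entries 49.2% of the values were positive. In the 5 comparisons with a called member, 0 members differed in the opposite direction at an unadjusted p under 0.05. Over all tested entries, between 4.39% and 7.88% did so in these comparisons. Every KA_L value lay below every CTRL_L value for Psmb5, Psmc1, Psmc2, Psmd5, Psmd6 and Psmd12, 6 of 35 members (17.1%), against 4.54% of tested entries. KA_H against CTRL_L, which differ in treatment and letter, had 0 called members by limma, against 0.377% of tested entries in either direction, with 1 member (Psmd10) higher at an unadjusted p under 0.05, against 6.56% of entries. Its median was 0.22 over members and 0.10 over all. With only the groups compared in the fit, Psmb5 passed neither in KA_L against CTRL_L (adjusted p = 0.645 in limma, 0.0036 to 0.645 over the settings) nor in KA_H against KA_L (adjusted p = 0.0906 in limma, 0.000913 to 0.0906 over the settings), and it passed both in the other 24 settings. The Psmd5 call in KA_L was lost in 19 of 25 other settings (adjusted p from 0.0255 to 0.544), among them the omission of any 1 KA_L, CTRL_L, KA_H or APOE_H library; 3 members passed without KA_L replicate 2 and 1 without any other of these libraries.

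APOE against KA was examined within each letter. In APOE_L against KA_L, Psmb5 was the only 1 of 35 members called, with 0.0343% of tested entries higher and 0.0114% lower; the median was 0.30 over members and -0.04 over all. Every APOE_L value exceeded every KA_L value in 3 members, Psmb3, Psmb5 and Psmd12 (8.57%), against 3.57% of tested entries. APOE_H against KA_H had 0 called members by limma, where 0.531% of tested entries were called in either direction and 2 members, Psmd3 and Psmd12, were higher at an unadjusted p under 0.05, against 5.6% of entries. All 17 regulatory particle genes had a positive log2 fold change there (median 1.62, against 0.08 for the core particle and 0.25 for all tested entries), and 15 of 35 members (42.9%) had every APOE_H value above every KA_H value, against 14.6% of tested entries. Of all tested entries, 57.3% had a positive log2 fold change in that comparison. Every APOE_H value lay below every KA_H value in 1 member, Psmb2 (2.86%), against 6.51% of tested entries. Averaged over letters, 0 members were called by limma (0.0171% of tested entries in either direction) and 8 were higher at an unadjusted p under 0.05, against 4.95% of entries, led by Psmb5 at 3.66 (SE 0.66, adjusted p = 0.0738 in limma). The Psmb5 call in APOE_L was lost without any 1 of the APOE_H, APOE_L or KA_H libraries or KA_L replicate 1 (0 calls), and 2 members passed without KA_L replicate 2. The average over letters had 2 calls without KA_L replicate 2 and 1 without CTRL_L replicate 1 or 2.

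The subunits of a particle are needed in fixed proportion, so the evenness of their transcripts was described over the 31 subunits that exclude Psma8, Psmb11 and the chaperones. Of 93 values per group, 0 lay under 1 TPM in APOE_H, 8 in APOE_L, 3 in KA_H, 24 in KA_L and 9 in CTRL_L. In KA_L, 14 of the 24 were listed at 0, and Psmb3, Psmb5, Psmc4, Psmc5, Psmd1, Psmd3, Psmd7 and Psmd8 lay under 1 TPM in at least 2 of its 3 libraries. KA_L replicates 1 and 3 had 11 and 10 subunits under 1 TPM (35.5% and 32.3%) and replicate 2 had 3 (9.68%). Of tested protein-coding entries, 43.0%, 46.1% and 32.9% lay under 1 TPM in replicates 1, 3 and 2. In every library of the series this share was lower among the 31 subunits than among the tested protein-coding entries. Over all tested protein-coding entries, the share under 1 TPM was 9.67% to 21.7% in APOE_H, 36.8% to 43.2% in APOE_L, 20.7% to 24.6% in KA_H, 32.9% to 46.1% in KA_L and 34.9% to 39.1% in CTRL_L. Low values were thus more frequent in L libraries across the whole table, and the part of this in the members' values was not tested.

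**Figure D5:**
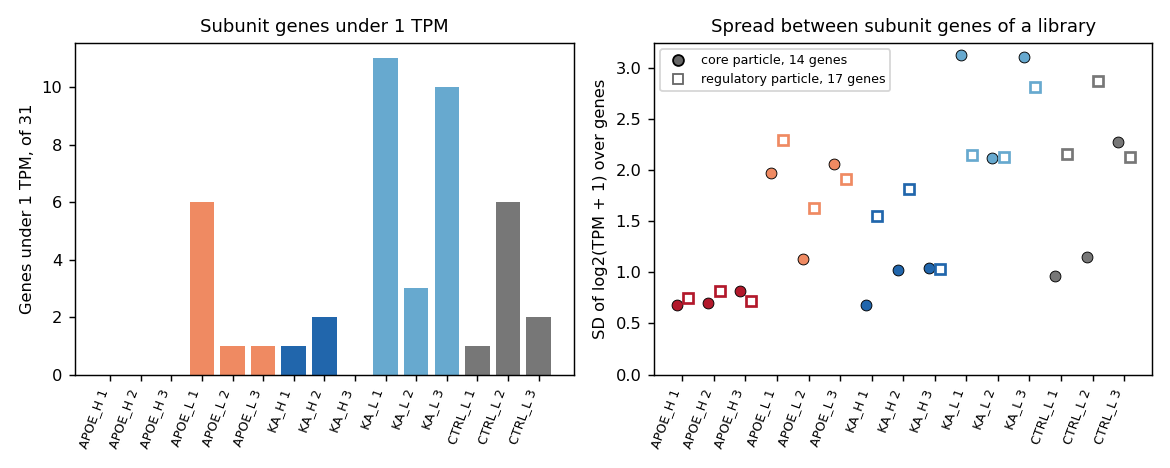
Left, the number of 31 subunit genes under 1 TPM in each library; right, the SD of log2(TPM + 1) over the core genes (filled) and the regulatory genes (open) of each library. APOE_H libraries have 0 genes under 1 TPM and core SDs of 0.68 to 0.81, and KA_L libraries have 3 to 11 genes under 1 TPM and core SDs of 2.12 to 3.12. The KA_L counts are 9.68% to 35.5% of the 31 genes, against 32.9% to 46.1% of tested protein-coding entries.

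The spread between the core genes of a library, as the SD of log2(TPM + 1), was 0.68 to 0.81 in APOE_H, 1.13 to 2.06 in APOE_L, 0.68 to 1.04 in KA_H, 2.12 to 3.12 in KA_L and 0.97 to 2.27 in CTRL_L. The regulatory genes had SDs of 0.72 to 0.82 in APOE_H, 1.63 to 2.29 in APOE_L, 1.03 to 1.81 in KA_H, 2.12 to 2.81 in KA_L and 2.13 to 2.87 in CTRL_L. KA_L and CTRL_L libraries thus overlapped in the SDs of the core and of the regulatory genes. Replicates also differed less in APOE_H. There the median SD of log2(TPM + 1) between replicates was 0.34 over the 31 subunits and 0.80 over all tested entries. In KA_L it was 2.25 and 1.17. The entries were not matched to the subunits in level, and the part of level in these differences was not tested. The highest APOE_H replicate was under 2 times the lowest in 24 of the 31 subunits, against 27.4% of tested protein-coding entries. In KA_L the same held for 2 subunits, against 7.02% of those entries.

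Other genes of the pathway were taken from 7 lists with 40 genes, of which 39 were tested. In H against L averaged over KA and APOE, 4 were higher and 0 lower, where 7.72% of all tested entries were higher. These were Ubqln1, which delivers ubiquitinated proteins to the proteasome, at a log2 fold change of 3.40 (SE 0.78, limma adjusted p = 0.0106), and 3 assembly chaperones of the core particle. These chaperones were Psmg1 at 4.50 (SE 0.83), Psmg3 at 3.07 (SE 0.90) and Pomp at 1.92 (SE 0.48), with limma adjusted p-values of 0.00313, 0.0395 and 0.0179. Psmg1 was listed at 0 in all 6 APOE_L and KA_L libraries, against 11.95 to 39.1 TPM in the 6 H libraries and 29.4, 5.21 and 0 TPM in CTRL_L. In APOE_H against APOE_L, 5 were higher and 0 lower, among them Psmg1, Ubqln1 and the unfoldase gene Vcp, where 4.7% of all tested entries were higher. In APOE_H against KA_H, 1 was higher and 0 lower, where 0.36% of all tested entries were higher. In the other 6 comparisons 0 pathway genes passed by limma. At an unadjusted p under 0.05 there were 3 to 9 of the 39, against 7.84% to 14.8% of all tested entries in these comparisons.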

How the data were processed

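RNA from brain was sequenced after Trizol extraction and TruSeq library preparation, per the labels' protocols. The authors deposited 1 table of TPM for 15 libraries. The aligner was STAR and the build GRCh38, per the submitters' processing notes, although that assembly is human and the identifiers are of mouse genes. Quantifier, annotation and strandedness are not given in the sources used here. TPM keeps no sequencing depth, so the counting error of a value is unknown; the number of libraries limits the precision.

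Identifiers were matched to GENCODE M21 symbols (52083 matched, 3333 without a symbol, 10548 assembled loci; 68 entries with a repeated symbol were left unnamed). The 17505 entries that reached 1 TPM in 3 or more libraries were tested on log2(TPM + 1), pseudocount 1, with limma 3.58.1 in R 4.3.3 (trend, 10 residual degrees of freedom, median prior 6.67) for 9 comparisons, with Benjamini-Hochberg adjustment within each. The procedure was tested on simulated data. No pair of libraries held identical values. The members, lists and tests were chosen with earlier results of these data known. Genes named with values were members past the threshold, catalytic genes, the highest and lowest of each class, and members listed at 0 in some library but at 1 TPM or more in at least 12. Psmb11, Psmd1, Psmd9, Psmd10, Psmc2 and Psmc4 are named beside counts and were chosen after their values were seen. An exact 0 can be a failed estimate, since Pgk1, a gene every cell uses, was listed at 0 in APOE_L replicate 1 and CTRL_L replicate 1. Summed levels were not tested. The alternatives were 3 other scalings, pseudocounts of 0.1 and 5, 2 other filters, array weights, only the groups compared, a replicate block and leaving out each library. Promoters were matched by symbol. The values of 1 gene of the pathway lists are not reported here.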

Additional observations from a re-analysis of the deposited data

How the results depend on the processing

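No log2 fold change of a called member changed sign under any of the 25 alternatives. Counts of called members by setting are given without the number of all tested entries called in the same setting. A change among the members is therefore not set here against one in the whole table, and it may follow that table. The number of called members in KA_L against CTRL_L was 2, and 1 with upper-quartile scaling, quantile normalization, rescaling to protein-coding nuclear genes, a pseudocount of 0.1 or array weights, 0 with only the groups compared, and 1 to 3 when leaving out 1 library. In KA_H against KA_L it was 2, and 1 with a pseudocount of 5 or no filter, 0 with only the groups compared, and 1 to 2 when leaving out 1 library. In APOE_H against APOE_L it was 2, and 1 with no filter, 4 with only the groups compared, 5 with array weights, and 1 to 4 when leaving out 1 library. In H against L it was 8, and 5 with rescaling or a pseudocount of 0.1, 4 with no filter, and 3 to 13 when leaving out 1 library. In APOE_L against KA_L it was 1, and 0 with a pseudocount of 5, no filter or only the groups compared, and 0 to 2 when leaving out 1 library. Averaged over letters, APOE against KA had 0, and 1 with only the groups compared or array weights, and 0 to 2 when leaving out 1 library; the interaction had 0 to 1. KA_H against CTRL_L and APOE_H against KA_H had 0 in all settings run. The setting with only the groups compared left fewer libraries in the fit, and counts rose in some comparisons and fell in others. The cause of these and of the other changes was not tested.

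The 3 scalings kept the sign of every member median but moved the median of all tested entries: in H against L it was 0.32, and 0.38 with upper-quartile scaling, -0.14 with quantile normalization and 0.64 with rescaling, where the member median was 2.22, 1.93 and 1.98. The largest such move was in APOE_H against APOE_L, at 0.54 and, with quantile normalization, -0.06, where the member median was 1.90.

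The correlations showed no strong pairing of the libraries by replicate number. Of 30 pairs with the same number in different groups, 0 had a correlation of deviations above 0.1 (range -0.0263 to 0.0365, median 0.0048). Pairs with different numbers had a median of -8e-04. With 3 numbers per group, 10 of 15 libraries correlated best with their own number. Whether a weak pairing exists was not tested. With the replicate block, called members were 1 in KA_L against CTRL_L, 1 in KA_H against KA_L, 2 in APOE_H against APOE_L, 4 in H against L and 0 in APOE_L against KA_L and the other 4 comparisons. Depth is unknown, so values near 0 have no known counting error.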
